A study of Mus musculus with 8 samples.

Results

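The RNAs of the MCM helicase and topoisomerase genes were examined for peaks of Flag-MBD5 and Flag-MBD6 in mouse embryonic stem (mES) cells. The 10 genes were Mcm2, Mcm3, Mcm4, Mcm5, Mcm6, Mcm7, Top1, Top2a, Top2b and Mki67, of 21951 annotated protein-coding genes. A peak was assigned to a gene when its midpoint lay in the gene body on the same strand (GENCODE release M21, build mm10), and 171 of 29555 peaks (0.579%) were assigned to them in this way. The series holds 8 samples in 4 groups of 2, namely CLIP of Flag-MBD5, CLIP of Flag-MBD6 and a digested input for each. Peak lists of the 4 CLIP libraries were analysed, and the 4 input samples were not used here. All cells carried a stable pPB-3XFlag-Hyg construct that expressed human MBD5 or human MBD6 behind a 3XFlag tag, under hygromycin selection, in medium with LIF, CHIR99021 and PD0325901. The cells also had their own MBD5 and MBD6 genes, which no label says were removed. The characteristics and the study's methods name a Flag antibody, whereas the extraction protocol of the labels names an antibody against MBD6.

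MCM2 to MCM7 form the ring of ATPases that is loaded on DNA at replication origins and unwinds it at the fork. Topoisomerase I, encoded by Top1, cuts a single DNA strand to release supercoils ahead of forks and RNA polymerases, and the topoisomerase II enzymes encoded by Top2a and Top2b pass a duplex through a double-strand cut, TOP2A being the form of proliferating cells. Mki67 encodes Ki-67, a very large nuclear protein of cycling cells that coats mitotic chromosomes and holds long internal repeats. In CLIP, ultraviolet light links a protein to RNA, the complex is pulled down, and the RNA left after RNase digestion is sequenced. RNase T1, used here, cleaves after G, and a peak's 5′ edge marks where recovered fragments began.

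The number of reads at a peak's summit was solved from the deposited fold enrichment and p value of each peak. The peak caller kept at most 5 reads per start position, so high summits are compressed. Estimated depth was 478790 and 500143 reads for Flag-MBD5 and 983918 and 1111742 reads for Flag-MBD6. Libraries of the same protein differed by less than sampling noise (chi-square per degree of freedom 0.496 at 685 sites for Flag-MBD5 and 0.414 at 277 sites for Flag-MBD6). Each protein was therefore counted as 1 sample, no test over libraries was run, and intervals cover counting error only. Of 12 marker genes of embryonic stem cells, 5, 6, 8 and 9 held a peak in the 4 libraries, with Klf2 and Lin28a at 0 peaks throughout. None of 7 feeder fibroblast, 5 primitive endoderm and 4 trophoblast markers held a peak in any library. The level of each RNA was not measured in these files, so peak numbers and summit reads carry both abundance and recovery with the protein.

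The window at the site with the most summit reads in each of the 10 genes is shown first, because the genes differed in where along the coding sequence the peaks began and in the codons found there. Each is the first 30 nt from the 5′ edge of the strongest peak of its site, 5′ to 3′, taken from the GENCODE transcript. Capitals mark bases of in-frame codons for aspartate, glutamate or lysine, including codons cut off at the ends of the window. The sites are numbered along each gene in the direction of transcription.
Mcm2 site 2: cgccgccacgtaGAAcgcgccacaGAGGAT
Mcm3 site 3: GAGAAGGAGAAGAAAcgtAAGAAGgcaagt
Mcm4 site 1: tcgtcacccaatcggagacgtagaggcGAA
Mcm5 site 1: cggcattacaacctgggtGAAtactggatc
Mcm6 site 2: AAtactgccgaatctcgaacctcatcgtgc
Mcm7 site 3: ctccgGAGatctatggacatGAAGATgtgA
Top1 site 6: AAAGACtggcagAAGtatGAGactgcgcgg
Top2a site 11: tttaggttccaGATGAAGAAGAAaatGAAG
Top2b site 1: ATGAAGAAtttagtggaacaccagcaGAAg
Mki67 site 11: agccaaggcccAAGtttGATgcatctgcaG
The Mcm3 window had 21 of its 30 bases in such codons, that of Top2a 16, that of Top1 12, that of Top2b 11 and that of Mcm7 10. The windows of Mcm2 and Mki67 had 9 and 7, and those of Mcm4, Mcm5 and Mcm6 had 3, 3 and 2, so the strongest peaks did not all begin in stretches rich in them.

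Peaks were spread very unevenly over the 10 genes. A peak was held by 9, 9, 8 and 9 of them in the libraries Flag-MBD5 1 and 2 and Flag-MBD6 1 and 2, where 10.1%, 9.90%, 16.2% and 16.5% of all protein-coding genes held any. Mki67 had 15 and 13 peaks with Flag-MBD5 against 15 and 12 with Flag-MBD6. Top2a had 7 and 10 against 14 and 17, and Top1 had 5 and 6 against 6 and 6. Ranked by mean peaks per library among all protein-coding genes, Mki67 was 19th, Top2a 28th and Top1 171st. Within the helicase, Mcm2 had 3 and 4 against 5 and 2 peaks and Mcm3 had 4 and 3 against 3 and 3. The other subunits held few: Mcm4 had 1 in every library, Mcm6 had 1 and 1 against 0 and 2, Mcm7 had 1 and 1 against 2 and 2, and Mcm5 had 1 and 0 against 1 and 1. Top2b had a single peak, in Flag-MBD5 replicate 2. With Flag-MBD5 Mki67 led in both libraries, whereas with Flag-MBD6 Top2a had the higher mean (15.5 against 13.5 peaks) although Mki67 had 1 more in replicate 1. That lead was not kept when libraries were cut to an equal number of peaks (10 in Top2a against 10.5 in Mki67). The Top2a counts include 1 peak per library on an intronic snoRNA. The counts of Mcm4, Mcm5, Mcm6 and Mcm7 differed by no more than the counts of a single gene did between libraries.

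**Figure D1:**
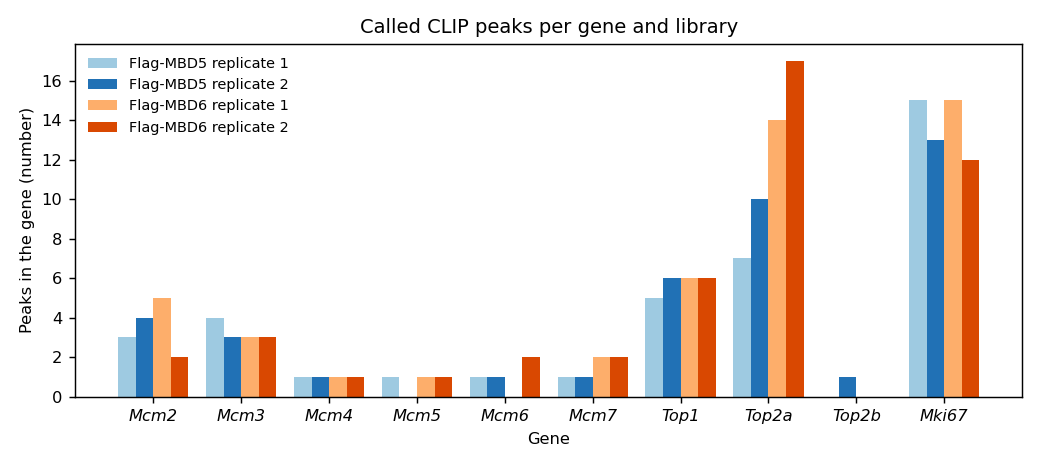
Number of called peaks in each of the 10 genes, with a bar for each of the 4 CLIP libraries (blue, Flag-MBD5; orange, Flag-MBD6). Mki67 and Top2a hold 7 to 17 peaks per library, whereas Mcm4, Mcm5, Mcm6, Mcm7 and Top2b hold 0 to 2.

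Length did not order the genes in the same way. Top2a had 2.62 peaks per kb of coding sequence in the mean library and Top1 2.50, against 1.44 in Mki67, 1.33 in Mcm3 and 1.29 in Mcm2. All peaks in the gene body were counted here. Of the 48 in Top2a, 44 fell in coding sequence and 4 lay on an intronic snoRNA, whereas all 23 in Top1 fell in coding sequence. The order of Top2a and Top1 is therefore not firm. The median of the 4242 protein-coding genes with any peak was 0.534 (quartiles 0.246 to 1.16). Mcm7 at 0.695 lay above that median, and Mcm6 at 0.406, Mcm4 at 0.387, Mcm5 at 0.341 and Top2b at 0.0517 below it. The 10 genes took 0.709% and 0.742% of the Flag-MBD5 peaks and 0.510% and 0.480% of the Flag-MBD6 peaks, of 5362 and 5388 against 9218 and 9587 peaks.

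Reproducible regions, merged from peaks of both libraries of a protein, were found in 7 of the 10 genes for Flag-MBD5 (Mcm2, Mcm3, Mcm4, Mcm6, Top1, Top2a and Mki67), where 7.80% of all protein-coding genes held such a region. For Flag-MBD6 they were also found in 7 (Mcm2, Mcm3, Mcm4, Mcm7, Top1, Top2a and Mki67), where the share of all genes was 13.8%. These shares are over all annotated genes, transcribed in mES cells or not. Mcm6 was on the Flag-MBD5 list alone and Mcm7 on the Flag-MBD6 list alone, but each also had a peak of the other protein, so no difference between the proteins was shown. With a single library in place of both, 9 genes counted for Flag-MBD5 with either library and 8 or 9 for Flag-MBD6.

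When overlapping peaks of all libraries were merged, the 171 peaks formed 55 sites. A peak of all 4 libraries was present at 26 of them: 9 in Mki67, 7 in Top2a, 5 in Top1, 3 in Mcm3 and 1 each in Mcm2 and Mcm4. The 7 in Top2a include site 3, on an intronic snoRNA. A further 11 sites were reproducible for Flag-MBD6 alone, 7 of them in Top2a. Of the 11, 6 had no Flag-MBD5 peak (10.9% of the 55 sites, against 20.6% of all sites of the series). Of all 12074 sites of the series, 32.4% were reproducible for Flag-MBD6 alone, a larger share than 11 of 55, and the 26 sites of all 4 libraries were 47.3% of the 55, against 29.5%. The Flag-MBD6 libraries were deeper, and the part of depth in these counts was not tested. Only 2 were reproducible for Flag-MBD5 alone, Mcm2 site 5 and Mcm6 site 1, and both had a peak in 1 Flag-MBD6 library (3.64%, against 3.30% of all sites). Another 15 sites were seen in a single library, 9 with Flag-MBD6 and 6 with Flag-MBD5, with 6 to 22 reads at the summit. They were 27.3% of the 55, near the 30.8% of all sites. The sites in all 4 libraries had 6 to 139.

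Among the helicase genes, the most reads were at Mcm3 site 3 (chr1:20805677-20805899, minus strand, exon 14 of 17), whose sequence of alternating glutamate and lysine codons is shown above. Its summits held 56 and 63 reads with Flag-MBD5 and 104 and 95 with Flag-MBD6, at a fold enrichment of up to 68.9. The groups did not overlap before scaling, but Flag-MBD6 libraries had about 1.70 times the reads at the median of all shared sites, and after scaling by that factor the log2 ratio of Flag-MBD6 to Flag-MBD5 was -0.02 (95% counting interval -0.35 to 0.32). Sites 2 and 4 of Mcm3 flanked it in exons 13 and 16. Site 2 had 25, 36, 24 and 31 reads in the same order of libraries and site 4 had 24, 21, 28 and 34. All 12 of the peaks at these 3 sites began in the last 25% of the coding sequence, between codons 613 and 718 at their strongest, well past the Walker A motif, the ATP-binding loop of the MCM proteins, at codon 345.

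Mcm2 peaks lay elsewhere in the protein. Site 2 (chr6:88892871-88893463, minus strand) was present in all 4 libraries with 28, 41, 28 and 36 reads, and its peaks began at codons 96, 139, 140 or 151, in the N-terminal part of the protein ahead of the helicase core. The windows of Mcm2 held 42.0% of aspartate, glutamate and lysine codons, against 20.8% in its whole coding sequence and 27.9% in the first 25% of it. The 4 libraries overlapped in reads at this site. After scaling, its log2 ratio was -0.87 (-1.38 to -0.36), and that of Mcm3 site 2 was -0.91 (-1.46 to -0.36). Both were lower with Flag-MBD6 relative to the median site, and neither reached a 2-fold difference in the main setting. Both passed it without Flag-MBD5 replicate 1 (-1.13 and -1.16) and when scaled by estimated depth (-1.21 and -1.25). Without Flag-MBD5 replicate 2 they were -0.61 and -0.67. Without Flag-MBD6 replicate 2, by fold enrichment and with equal numbers of peaks, 1 of the 2 passed. The summits of Mcm2 site 2 lay up to 75 nt apart between libraries. Mcm2 site 5 in exon 11 had 20 and 18 reads with Flag-MBD5 and 22 in Flag-MBD6 replicate 1, and the other 4 sites of the gene were called in 1 or 2 libraries with 11 to 18 reads.

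Mcm4 had its only site at codon 31 in exon 2 (12, 16, 17 and 23 reads), far from its Walker A motif at codon 509. Mcm6 site 1 began at codon 664 in a run of glutamate codons, with 13 and 14 reads with Flag-MBD5 and 12 in Flag-MBD6 replicate 2. Mcm5, which at 5.26% had the fewest aspartate, glutamate and lysine codons in its windows, had 3 sites of a single library each, with 9 to 18 reads. Mcm5 site 3 began in the last exon outside the coding sequence. The 5.26% therefore rests on 2 windows, with 3 marked bases at site 1 and 0 at site 2. Mcm7 site 2 began at codon 291 or 295 with 10 reads in Flag-MBD5 replicate 1 and 15 and 14 with Flag-MBD6, and site 1 was called in Flag-MBD5 replicate 2 alone with 9 reads. The Mcm7 gene carries the miRNA genes Mir25, Mir93 and Mir106b in an intron, and no peak was called on them.

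The strongest Mcm7 site, reproducible with Flag-MBD6 (24 and 27 reads) and not called with Flag-MBD5, began at codon 341 and ran into a segment that all 6 subunits share ahead of the Walker A motif, which in Mcm7 is at codon 381. A peak of Flag-MBD6 replicate 1 in Mcm2 (site 4, 16 reads) began at codon 485, the first codon of that segment in Mcm2. The Mcm7 peaks began slightly ahead of the segment, whose first codon in Mcm7 is 344, so the 2 starts did not match exactly. The segment was located by a script as a residue pattern ahead of Walker A and is printed for the 6 paralogs with the capitals as above.
Mcm2 codon 485: atctatgggcatGAAGACatcAAGagaggc
Mcm3 codon 307: atccatgggcatGACtatgtcAAGAAGgca
Mcm4 codon 469: atttatGAAcatGAAGATatcAAAAAGgga
Mcm5 codon 343: atctttgggggcatgGATatgAAGAAGgcc
Mcm6 codon 358: atacatggcaatGATGAAgtaAAAcgcggt
Mcm7 codon 344: atctatggacatGAAGATgtgAAGAAGgcg
The segments of Mcm3, Mcm4 and Mcm2 shared 24, 23 and 22 of 30 bases with that of Mcm7, those of Mcm5 and Mcm6 shared 20 and 17, and of 10 encoded residues 7 matched in each of Mcm2, Mcm3 and Mcm4, 6 in Mcm5 and 4 in Mcm6. In Mcm3, Mcm4, Mcm5 and Mcm6 no peak began within 15 codons of it. The pair of genes with a peak was noticed after the values had been seen, and the Mcm2 peak was in 1 library.

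Top1 peaks fell at 6 sites on 6 exons (3, 4, 7, 8, 12 and 14 of 21), with strongest 5′ edges at codons 26, 68, 153, 190, 364 and 441. Of 23 peaks, 14 began in the first 25% of the coding sequence, the charged N-terminal domain of topoisomerase I, where 54.5% of codons were for aspartate, glutamate or lysine, and 0 began in the last 25%, where the share was 28.3%. Site 1 had 15, 18, 28 and 25 reads, site 3 had 14, 17, 21 and 23, and site 4 had 13, 15, 26 and 33. The windows of sites 3 and 4 each had 21 of 30 bases in the marked codons and are printed for their runs of lysine codons, a choice made after they had been seen.
Top1 site 3: AAAattAAGacaGAAGATatcAAGAAGGAG
Top1 site 4: ccaGATaatAAGAAAAAGAAGccgAAAAAG
Site 2 had 16, 30 and 27 reads and no call in Flag-MBD5 replicate 1. Site 5, in exon 12, was the weakest with 12, 12, 20 and 14 reads. The largest summit, site 6 in exon 14 (chr2, plus strand, 5′ edge at 160712651), had 19 and 27 reads with Flag-MBD5 and 56 and 60 with Flag-MBD6, for a log2 ratio of 0.57 (0.07 to 1.10). It lay outside the N-terminal domain, and its window held 12 bases of the marked codons.

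Top2a had the most sites, 17, along 36 exons. The strongest coding site was site 11 at the start of exon 26 (chr11:99000654-99001138, minus strand), in which the sequence above runs from 5 bases before the exon into a stretch of glutamate codons. It held 33 and 42 reads with Flag-MBD5 and 75 and 95 with Flag-MBD6 (log2 ratio 0.42, 0.02 to 0.83). After exon 25, which left 28.3% of the codons, 22 of the 48 peaks began. Exons 3 to 25 held 18, of which 1 and 3 were peaks of Flag-MBD5 and 6 and 8 peaks of Flag-MBD6. Among those, site 4 had 9 reads in Flag-MBD5 replicate 2 and no call in replicate 1, against 28 and 36 with Flag-MBD6, and site 7 had 17 and 16 reads with Flag-MBD6 alone. Site 1 opened the gene at codon 16 with 11, 13, 21 and 21 reads. Near the 3′ end of the coding sequence, site 14 had 9, 13, 18 and 19 reads, site 15 had 19 and 29 with Flag-MBD6 alone, and site 16 had 13, 13, 33 and 37.

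Top2a site 3 was not on the coding sequence. Its 4 peaks began 26 or 27 bases inside the intronic snoRNA gene Gm23451 (chr11:99017031-99017152, minus strand), lay on 95 or 96 of its 122 bases and ran past its 3′ end, with 23, 23, 30 and 26 reads, and its log2 ratio was -0.48 (-1.07 to 0.12). It was the site of Top2a with the lowest ratio. The peaks were 152 to 158 bases wide, and reads had been extended to a fixed length of about that size for calling. The overlap and the run past the 3′ end therefore follow largely from where the 5′ edges lay. Recovery of RNA past the end of the snoRNA was not tested.

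Top2b, the paralog, allowed a direct comparison of sequence. Exons 3 to 25 had the same length in both genes (23 of 23), and over the 1036 codons they span 82.5% of encoded residues and 74.7% of bases were identical. The share of A was 32.9% in Top2a and 33.4% in Top2b, and the share of aspartate, glutamate and lysine codons was 22.4% and 22.7%. In these exons 18 peaks began in Top2a and 0 in Top2b. The single Top2b peak began at codon 1263 in exon 29 with 6 reads. The part of RNA abundance in this difference was not tested.

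**Figure D2:**
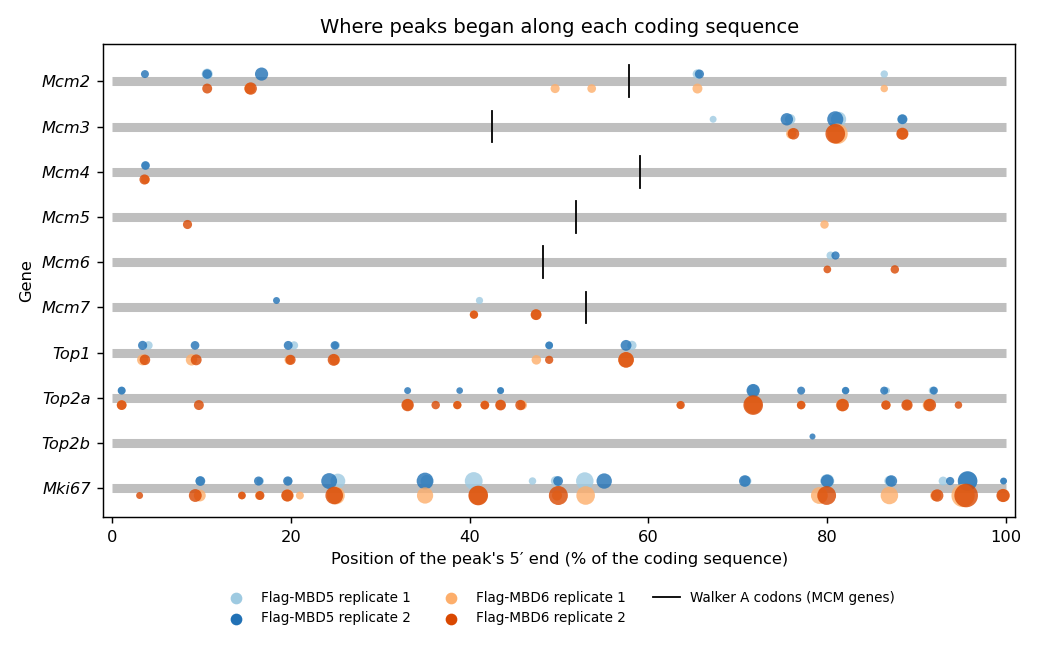
Position of the 5′ end of each peak as a percent of the coding sequence of its gene, with Flag-MBD5 peaks (blue) above and Flag-MBD6 peaks (orange) below the grey bar, dot area growing with summit reads and black ticks at the Walker A codons of the MCM genes. Top1 peaks crowd in the first 25%, 12 of 13 Mcm3 peaks in the last, and Mki67 peaks run along the whole sequence.

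Mki67 peaks were wide as well as many. Exon 12, an unusually long exon of 6836 bases with 71.7% of the coding sequence, held 31 of the 55 peaks, and 67.8%, 65.2%, 72.3% and 77.0% of its bases were covered in the 4 libraries. The widest peak in each library spanned 1576, 1440, 2030 and 2322 bases. The encoded protein repeated itself at a distance of 121 codons, at which 15.2% of residues were identical against a median of 6.91% over all distances tested. This was read over the whole protein and not over exon 12 alone. Reads that matched up to 10 places in the genome were kept at a single place by the aligner, and whether the repeats moved reads along the exon was not tested.

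The most reads of any site in the 10 genes were on the next exon. Mki67 site 11 began in exon 13 (5′ edge at chr7:135693462, minus strand, codon 3036) with 87 and 95 reads with Flag-MBD5 and 135 and 139 with Flag-MBD6, at up to 87.4-fold enrichment, and the 4 summits lay within 6 nt of each other. Its log2 ratio was -0.17 (-0.45 to 0.11). In exon 12, site 6 had 78, 69, 86 and 95 reads and site 8 had 75, 57, 85 and 89. Site 9, with 47, 39, 75 and 87 reads, joined peaks whose summits lay up to 685 nt apart. The log2 ratios of sites 6 and 8 were -0.46 (-0.78 to -0.14) and -0.36 (-0.70 to -0.03). Outside exon 12, site 2 in exon 6 had 18, 21, 33 and 39 reads, site 4 in exon 8 had 11, 18, 17 and 17, and site 5 in exon 9 had 13, 19, 33 and 34. The share of aspartate, glutamate and lysine codons was 19.4% in the Mki67 windows and 22.7% in the coding sequence, so the gene with the most peaks was, with Mcm5, one in which the windows did not exceed it.

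**Figure D3:**
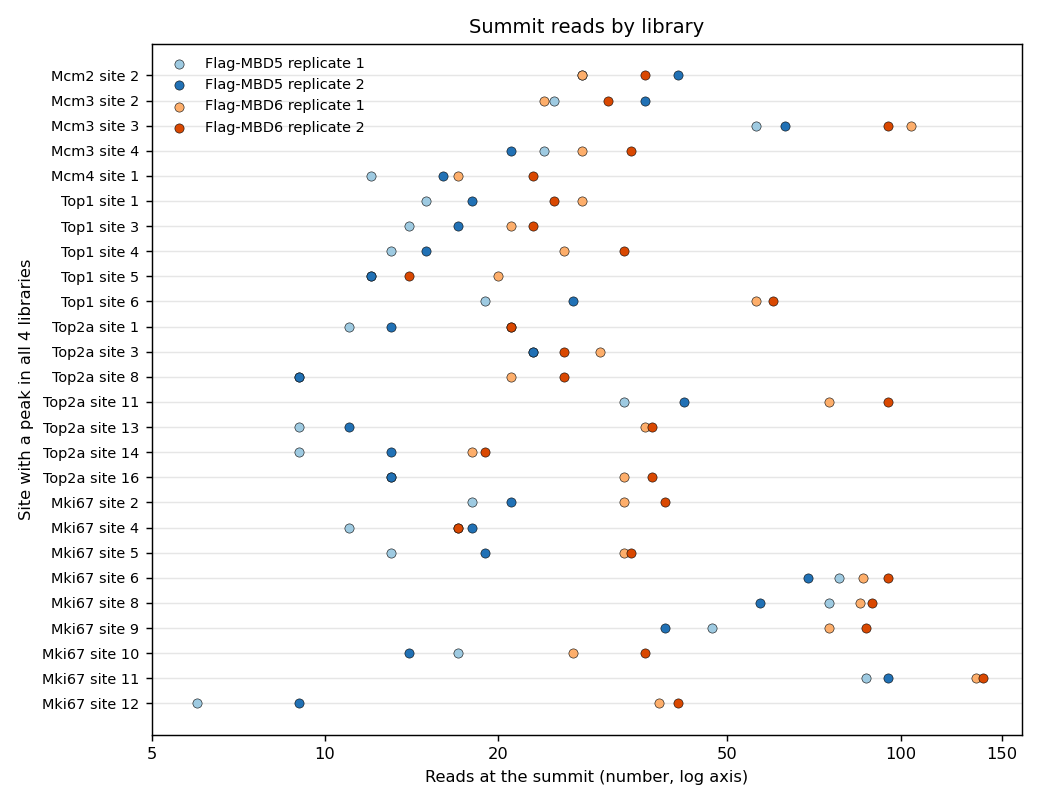
Reads at the summit in each of the 4 libraries (log axis) at the 26 sites with a peak in all of them. Reads run from 6 to 139, and Mki67 sites 6, 8, 9 and 11, Mcm3 site 3 and Top2a site 11 are the highest.

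Flag-MBD6 and Flag-MBD5 were compared at the 26 shared sites with reads scaled by 1.70, the median ratio over 3566 sites of the series. The median log2 ratio at the 26 sites was -0.02 (quartiles -0.29 to 0.31), beside quartiles of -0.35 to 0.39 over all 3566. A difference of at least 2-fold in favour of Flag-MBD6 was seen at 2 sites, against 3.70% of all sites, and in favour of Flag-MBD5 at 0, against 2.16%. The 2 sites were 7.69% of the 26, and such small counts do not set these genes apart from the background. Mki67 site 12, at the end of the coding sequence in the last exon, had 6 and 9 reads with Flag-MBD5 and 38 and 41 with Flag-MBD6, for a log2 ratio of 1.64 (0.83 to 2.54). Top2a site 13 in exon 29 had 9 and 11 against 36 and 37, for 1.11 (0.38 to 1.90), but it fell short of 2-fold without Flag-MBD5 replicate 1 (0.96), when scaled by estimated depth (0.77) and by fold enrichment (0.97). Mki67 site 12 stayed past 2-fold in these recomputations, at 1.36, 1.30 and 1.54. At both sites the Flag-MBD6 reads were more than 3 times the Flag-MBD5 reads in every pair of libraries before scaling. Their summits lay 91 and 61 nt apart between libraries, and none of the 17 sites whose summits lay within 50 nt passed 2-fold. The share past 2-fold among all series sites with summits that close was not computed, so no link between summit distance and ratio is drawn. The interval was above 0 at 4 sites and below 0 at 4 sites. The same count was not made over all 3566 sites. Between a Flag-MBD5 and a Flag-MBD6 library, chi-square per degree of freedom was 3.74 to 4.39 at 469 sites, well above counting noise. Intervals that exclude 0 are therefore not read as a trait of these genes.

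**Figure D4:**
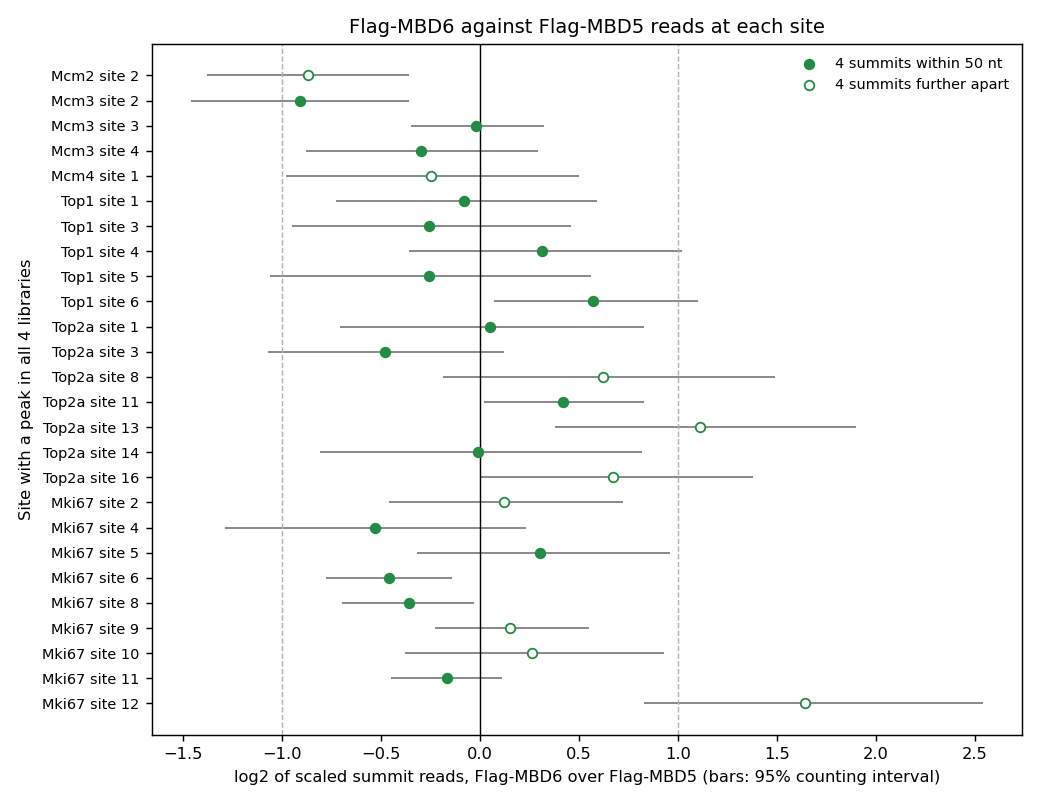
Log2 ratio of scaled summit reads, Flag-MBD6 over Flag-MBD5, at the 26 sites with 95% counting intervals, and dashed lines at 2-fold. Filled points have their 4 summits within 50 nt, and both sites past 2-fold, Top2a site 13 and Mki67 site 12, are open points.

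The 5′ edges fell in coding sequence at 164 of 171 peaks (95.9%, exact interval 91.7 to 98.3), read 15 nt inside the edge. The choice of genes sets much of this share, since all 10 encode proteins. Among the 25870 peaks with a midpoint in any protein-coding gene it was 90.2%, and among all peaks 79.0%. At the midpoint the 3 shares were 59.1%, 61.7% and 54.0%, and the calls rest on reads extended to 150 bases, which reach past the end of many exons of these genes. A G stood before the 5′ edge, the base after which RNase T1 cuts, at 89.2% and 79.5% of member peaks with Flag-MBD5 and 67.4% and 65.9% with Flag-MBD6, against 81.1%, 80.3%, 72.4% and 71.8% of all peaks. Pooled, the shares were 74.8% (67.5 to 81.3) and 75.3%. Peaks of several libraries at the same site share their sequence and are not independent.

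In the 30 nt after the edges, A made up 37.5% of bases, as in all peaks, but these genes were richer in A to begin with, at 31.3% of their coding sequences against 27.9%. Codons for aspartate, glutamate and lysine made up 33.0% of the windows and 23.5% of the coding sequences, against 36.5% and 20.2% for all peaks. The genes differed widely. The windows and the coding sequence had 51.8% and 36.0% in Top1, 39.6% and 26.0% in Top2a, 39.5% and 24.0% in Mcm3, 25.9% and 18.4% in Mcm7, 24.3% and 21.4% in Mcm6 and 18.4% and 17.9% in Mcm4. Among the 51 windows of the strongest peaks, 21 had at least 12 of their bases in these codons, 9 of them in Top2a and 5 in Top1. The same count was not made over all sites of the series, and all peaks had the higher codon share (36.5% against 33.0%). The 21 windows are therefore not read as a trait of these genes.

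**Figure D5:**
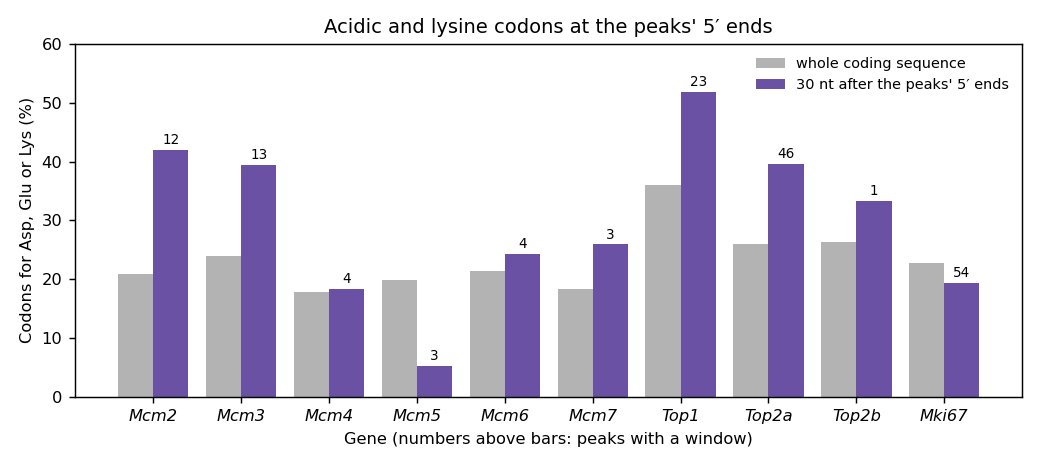
Percent of codons for aspartate, glutamate or lysine in the whole coding sequence (grey) and in the 30 nt after the 5′ ends of the peaks (purple), by gene, with the number of peaks above each bar. The purple bar is higher in 8 genes and lower in Mcm5 and Mki67.

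The local background behind the calls also differed between genes. Of the 171 peaks, 53 (31.0%) were called against the lowest background rate of their library and strand, compared with 51.2% of all peaks. In Mcm3 12 of 13 and in Top1 21 of 23 peaks were at that lowest rate, whereas the median rate was 3.88 times the lowest in Mcm2, 2.51 times in Mki67 and 2.41 times in Mcm5. Fold enrichment is therefore not directly comparable between these genes. Summit reads are not either, since they carry both RNA abundance and recovery with the protein.

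The 66 other genes of DNA replication that were looked up gave a wider frame. A reproducible region was held by 16 of them (24.2%) for Flag-MBD5 and by 27 (40.9%) for Flag-MBD6, and 30 had no peak in any library. Of all annotated protein-coding genes, transcribed in mES cells or not, 7.80% and 13.8% held such a region. Of 13 genes around licensing (the origin recognition complex, the loading factors and their inhibitor geminin, and MCM-related proteins), 2 and 6 had a region, led by Mcm10 (1, 3, 4 and 6 peaks) and Orc6 (2, 1, 2 and 2). Of 15 genes of origin firing and the fork, 5 and 9 had one, led by Clspn, the checkpoint mediator claspin (4, 3, 7 and 7), and Dbf4, the activator of the CDC7 kinase (2, 2, 3 and 4). Of 12 polymerase genes, 5 had one for each protein, led by Pole (2, 4, 9 and 10) and Pola1 (1, 1, 6 and 4). Of 14 genes for the clamp, its loader, single-strand binding and Okazaki fragments, 3 and 6 had one, led by the ligase gene Lig1 (4, 6, 8 and 7) and the clamp loader gene Rfc1 (6, 4, 7 and 7). Among 6 genes of other topoisomerases and their repair, 1 had a region for each protein, and the most peaks were in Topors (1, 2, 2 and 4) and Tdp1 (1, 1, 1 and 0). None of 6 genes of nucleotide supply had a region, and 1 of them had any peak.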

How the data were processed

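Per the study's methods, the authors filtered and clipped the reads, collapsed identical ones, removed rRNA reads, aligned the rest unspliced to mm10 with Bowtie 1.0.0 (up to 3 mismatches and 10 places), split strands with SAMtools 1.16.1 and called peaks per library and strand with MACS2 (reads extended to 150 bases, genome size 130000000, q under 0.01, at most 5 reads per start). The control given to MACS2 is not given in the sources used here. The deposited score is a whole-number form of the q value, the deposited fold enrichment is a ratio at the summit, p and q are deposited on a −log10 scale as MACS2 gave them, and another deposited column gives the summit offset.

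From these, summit reads were solved as the whole number of reads and Poisson rate that give both the fold and the −log10 p (100% of peaks solved). The lowest rates gave the depth. Sites were merged peaks (same strand, overlap of at least 1 bp). Read ratios were scaled by the median over sites of all 4 libraries, with exact Clopper-Pearson 95% intervals for counting error, and a difference counted when past 2-fold. PCR duplicates were treated by the authors, and reads are not independent molecules. Codon and base shares came from the GENCODE M21 transcripts. No genome sequence was used. Python 3.11.15, numpy 2.4.6, pandas 2.3.3 and scipy 1.17.1 were used, and the computations were tested on simulated data.

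The 10 genes, the list of 66 replication genes and the markers were chosen with earlier results of these data known. By rule, the text named the 10 genes, their sites found in all 4 libraries or reproducible for a protein, the strongest window of each gene and the 2 listed genes with the most peaks per group. Windows other than the strongest, single-library sites, the shared MCM segment and the shares over all sites and over peaks in protein-coding genes were added after values were seen. Alternatives covered q, fold, the position that decides the gene, strand, equal numbers of peaks, overlap, scaling, windows and leaving out each library.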

Additional observations from a re-analysis of the deposited data

Results flagged for a closer look

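Outside the same-strand peaks that the report uses, the opposite strand of Top1 held a peak in each Flag-MBD6 library and in no Flag-MBD5 library. The peak of replicate 1 (chr2:160656062-160656227, minus strand) had 16 reads at its summit and the peak of replicate 2 (chr2:160656056-160656211) had 14. It was listed here because it lay in data that no comparison above used, and no control samples were analysed against which to read it.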

How the results depend on the processing

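No paired analysis was possible because no reported value came from a test over libraries: those of the same protein differed by less than sampling noise and were, by choice, counted as 1 sample. The values in the report other than those of single genes and sites were recomputed 103 times under other settings, and 95 stayed within 1.5 times (counts), their counting interval (shares) or the spread between replicates (the ratio). The exceptions concerned the ratio and the position. Scaled by estimated depth in place of the median site, the median log2 ratio was -0.35, with 1 site (Mki67 site 12) past 2-fold towards Flag-MBD6 and 2 towards Flag-MBD5. With fold enrichment in place of reads, 1 site passed 2-fold in each direction. With libraries cut to an equal number of peaks, 1 passed towards Flag-MBD5. With only sites whose summits lay within 50 nt, an alternative added after the data had been seen, 0 passed towards Flag-MBD6. Read at the midpoint, 59.1% of peaks were in coding sequence. A stricter q, a minimum fold enrichment, and gene assignment by the 5′ edge or by the summit each kept all 171 peaks. Every value of this kind recomputed under them equalled the main value. Those values are counted among the 95, and they do not show how the results respond to a changed set of peaks.

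Leaving out a library moved the sites past 2-fold towards Flag-MBD5 to between 0 and 2, with 2 without Flag-MBD5 replicate 1 and 1 without Flag-MBD6 replicate 2. Counting each 5′ end once, also added later, moved none of the 4 shares out of its interval. Of 551 recomputed values of single genes and sites, 534 were kept and 0 called differences changed sign. The 534 include the settings that kept all 171 peaks, under which peak numbers per gene were unchanged and site ratios barely moved. Only the 2 sites past 2-fold could count as a change of sign. A site was kept when its ratio stayed in its counting interval, also where it fell below 2-fold, as Top2a site 13 did. Summit reads of 6 to 22 at single-library sites limit what their absence elsewhere shows.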
